A study of Drosophila melanogaster with 44 samples.

Results

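The comparison concerned adult female Drosophila melanogaster that lacked 2 chromosome segments on the same arm, 1 on each homolog, so that no intact copy of that chromosome was left. These genotypes are written Df/Df, where Df stands for a deficiency, a chromosome without a stretch of neighbouring genes. They were chosen by their labels as 4 of the 19 double heterozygotes in the series: Df(2L)ED4559/Df(2L)ED3, Df(2R)ED1770/Df(2R)ED1612, Df(3R)ED5071/Df(3R)ED10953 and Df(3R)ED7665/Df(3R)ED10953, named below by their ED numbers. Each of the other 15 double heterozygotes had both deletions over a + chromosome in its label. Of these, 4 joined a deletion of arm 2L to one of arm 2R (ED4559 with ED1770, ED4559 with ED1612, ED1770 with ED3, and ED1612 with ED3), and the labels do not say whether the 2 deletions were on the same or on opposite homologs of chromosome 2. The remaining 11 joined ED4559, ED1770, ED1612 or ED3 to ED5071 or ED7665, or ED4559, ED1612 or ED3 to ED10953, and were the only ones with deletions on different chromosomes, 2 and 3. The 44 Affymetrix arrays also held 19 of flies with 1 deletion over + and 6 of wild type. Each sample was 15 females of 0 to 24 h raised at 25 °C, and each double genotype was a single array. The p-values below therefore rest on a spread within a layout in which genotype and array cannot be told apart. The doubles also share deletions, with ED10953 in 2 of the 4 Df/Df genotypes, so they are not fully independent. The number of arrays limits the precision.

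In Drosophila the homologs of a chromosome are paired along their length in body cells as well as in the germline, and a regulatory element on one homolog can act on the gene on the other, a process called transvection. Deletions and rearrangements disturb pairing locally. Insulator proteins and condensins are among the proteins known to affect pairing. In Df/Df flies each gene of an interval is unpaired, as in a single heterozygote, but the intervals lie on opposite homologs, and the genes outside the intervals are present in 2 copies on 2 deletion-bearing chromosomes. The question set here was whether genes outside the intervals had other levels in Df/Df flies than in flies that carried as many deletions in another arrangement.

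Values are RMA values on the log2 scale, so a difference of 1 is a factor of 2. Of 7485 genes with a mean of at least 6 over all arrays, 7193 lay outside the 7 intervals and were tested. Array medians lay between 5.50 and 5.73, and Pearson correlations between double arrays across the tested genes, which are not independent replicates, between 0.911 and 0.990. The yolk protein gene Yp1 stood at 13.97, 14.14, 13.42 and 13.69 in the 4 Df/Df arrays, and 22 of 23 genes of the male accessory gland and testis stayed under 6 in all 4, with a median of 3.77 over the list. The number of each array in the labels ran from 20 to 38 for Df/Df and from 13 to 41 for the others. ED4559/ED3 and ED1770/ED1612 had numbers up to 26, together with 7 of the other 15, among them all 4 doubles of 2L with 2R. ED5071/ED10953 and ED7665/ED10953 had numbers from 27, together with 8 of the other 15.

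The labels held for both segments of every Df/Df array. The median over the genes of an interval, taken as log2 value minus the wild-type mean, was -0.82 for ED4559 and -0.81 for ED3 in ED4559/ED3, and -0.95 for ED1770 and -0.81 for ED1612 in ED1770/ED1612. It was -0.81 for ED5071 and -0.76 for ED10953 in ED5071/ED10953, and -0.82 for ED7665 and -0.83 for ED10953 in ED7665/ED10953. On a linear scale the 8 medians stood at 51.8% to 59.2% of the wild-type level. The 30 medians of other double carriers ran from -1.10 to -0.73, and the 209 medians of intervals present in 2 copies in deletion arrays ran from -0.28 to 0.26. Of the 8 levels, 6 lay within the range of the other doubles that carried the same deletion, and the 2 outside were those of ED5071/ED10953, both higher. The intervals were mapped from these arrays among others, so the levels are a check of the labels and were not tested.

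Df/Df flies had no gene outside the intervals that passed the test against the other 15 doubles. None of 7193 genes (0%) passed an adjusted p of 0.05 in limma, in either direction, and the lowest adjusted p was 0.999. Without adjustment 35 genes (0.487%) had a p under 0.05, 14 higher and 21 lower. Where no gene differs, a share of about 0.05 is met on average by a calibrated test. The share here was far below it, and whether the test was conservative was not tested. Among arrays numbered from 27 the same comparison had 609 such genes. A result of 0 calls does not show that no gene differed. With 7 deletion terms over the 19 doubles limma gave 222 genes with an unadjusted p under 0.05, also with 0 calls. The cause of the low count was not tested. For 0 genes did all 4 Df/Df arrays lie above all 15 others (0%), and for 0 did all 4 lie below (0%). The differences were small: their median was -0.02 and their median size 0.08, with a median half-width of the 95% interval of 0.27. For 6916 genes (96.1%) the whole interval lay within 1 log2 unit of 0, and for 5516 (76.7%) it lay within 0.5.

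**Figure D1:**
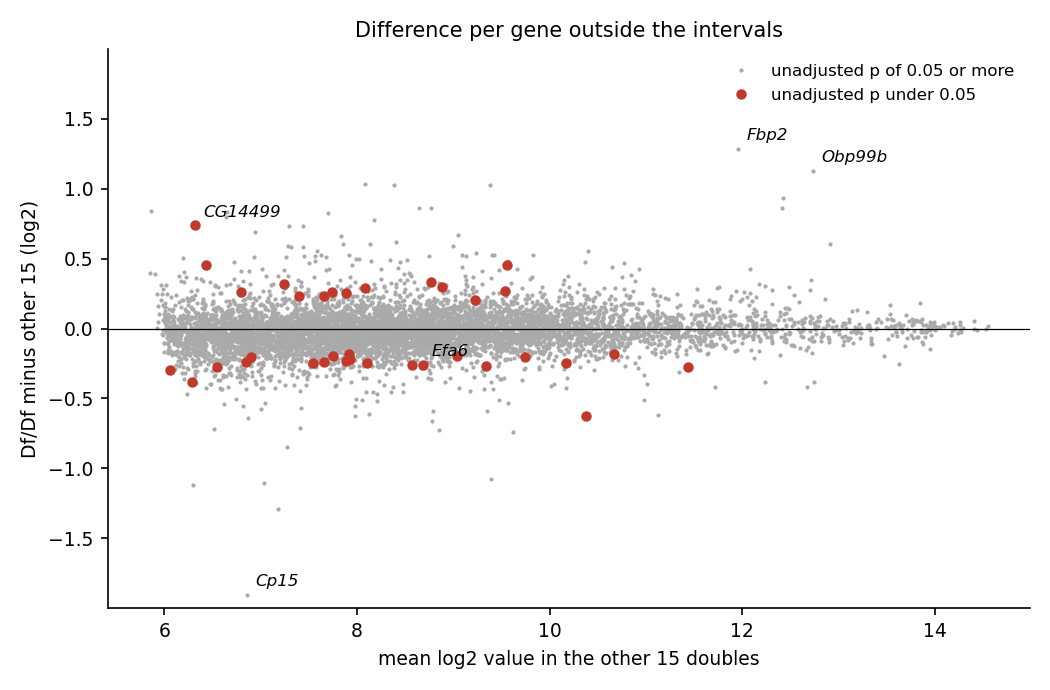
Difference between the means of the 4 Df/Df arrays and the other 15 doubles (log2, vertical axis) against the mean log2 value in the other 15 (horizontal axis) for the 7193 genes outside the intervals. Red points are the 35 genes with an unadjusted p under 0.05; 0 passed the adjusted threshold, the chorion gene Cp15 lies furthest below 0 and the fat body gene Fbp2 furthest above.

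CG14499, a gene on 2R and 1076 genes away from the nearest interval, had the smallest p of the comparison. It stood at 7.18 in ED4559/ED3, 7.64 in ED1770/ED1612, 6.96 in ED5071/ED10953 and 6.45 in ED7665/ED10953, against 5.94 to 7.09 with a median of 6.27 in the other 15 doubles. The groups overlapped: all 4 Df/Df values were above that median, and 12 of the 15 lay below the lowest of them. The difference was 0.74 ± 0.21 (SE, 95% interval 0.31 to 1.17), with a limma p of 0.00178 and an adjusted p of 0.999. Most of it came from the chromosome 2 pairs. Among arrays numbered up to 26, ED4559/ED3 and ED1770/ED1612 did not overlap with the other 7, which lay between 5.95 and 6.27. There limma gave a difference of 1.32 ± 0.17 (SE) with an adjusted p of 0.0428, and CG14499 was the only call among 7193 genes. Among arrays numbered from 27 the difference was 0.19. Within the 6 doubles that carry ED4559, ED3, ED1770 and ED1612 in pairs, where each of these 4 deletions has the same weight in both layouts, CG14499 lay at 7.18 and 7.64 in Df/Df against 5.98 to 6.15 in the 2L with 2R doubles. That difference was 1.35 ± 0.21 (SE) with an adjusted p of 0.246 in limma. The gene also varied among arrays that have no second deletion. It ran from 5.35 to 8.37 over the 19 single-deletion arrays, which are of several genotypes, and from 5.30 to 7.67 over the 6 wild-type arrays. Means of the single-deletion genotypes ran from 5.99 (ED10953) to 7.52 (ED5071). The fits by array number and by deletion set were chosen after seeing the data. CG14499 was picked for its small p in a fit that held these same arrays, so the lack of overlap follows in part from that choice. The share of all genes without overlap was not counted.

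The other genes with the smallest p among those higher in Df/Df differed by 0.23 to 0.33, and none passed. SLIRP2, named after a mitochondrial RNA-binding protein, stood at 8.02, 8.31, 8.09 and 8.16 in ED4559/ED3, ED1770/ED1612, ED5071/ED10953 and ED7665/ED10953, against 7.65 to 8.10 with a median of 7.83 in the other 15. Of those 15, 11 lay below the lowest Df/Df value, and the difference was 0.26 ± 0.09 (SE, limma p = 0.00881). CG10300 was nearly level over the Df/Df arrays, at 7.58, 7.55, 7.62 and 7.49, while the other 15 ran from 6.82 to 7.61 with a median of 7.28. Its difference was 0.32 ± 0.13 (SE). Dph3, which takes part in making diphthamide, a modified residue of the translation factor eEF2, differed by 0.26, and Ant2, a mitochondrial carrier that exchanges ADP for ATP, by 0.26. Arpc3B, a subunit of the actin-nucleating Arp2/3 complex, differed by 0.30 and Nsun2, an RNA cytosine methyltransferase, by 0.23. CG30016 (0.33), CG44251 (0.27) and CG31810 (0.29) complete the 10. For Nsun2, 3 of 4 Df/Df arrays were above the median of the other 15, and for each of the other 9 genes all 4 were.

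Lower values were as scattered over functions. Efa6, an exchange factor for the small GTPase Arf6, stood at 8.56, 8.37, 8.34 and 8.43 in the 4 Df/Df arrays in the same order, against 8.27 to 8.90 with a median of 8.73 in the other 15. Of the 15, 12 were above the highest Df/Df value, and the difference was -0.26 ± 0.09 (SE, limma p = 0.0107). Camta, a calmodulin-binding transcription activator, had 5.999, 6.27, 5.85 and 5.49 against 5.61 to 6.55, a difference of -0.38 ± 0.15 (SE). These values lie around the filter of 6, and only 1 of the 4 probe sets of Camta was used. Camta lies 26 genes from the ED1770 interval, and the array with the lowest value, ED7665/ED10953, does not carry ED1770. CG10477 had the largest difference of this set, -0.62 ± 0.27 (SE), with 9.94, 10.13, 9.61 and 9.33 in Df/Df against 9.34 to 11.43 in the others. Pdcd4, an inhibitor of translation, differed by -0.25, wge by -0.25, and Nin, a centrosome protein, by -0.27. Hs2st, a heparan sulfate sulfotransferase, differed by -0.19 and Marf, the mitofusin that joins mitochondria, by -0.18. The remaining 2 were sstn (-0.24) and aqz (-0.27). In all 10 genes each of the 4 Df/Df values lay below the median of the other 15. The 20 genes named in these paragraphs were picked for small p, so the agreement of the 4 arrays in them is a description of that choice. All 20 kept their sign in each of the 32 to 34 alternative fits that could be made for them, but the sizes varied. The difference ran from -0.45 to -0.0075 for wge, from -0.30 to -0.025 for Efa6, from -1.14 to -0.078 for CG10477 and from 0.19 to 1.35 for CG14499.

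**Figure D2:**
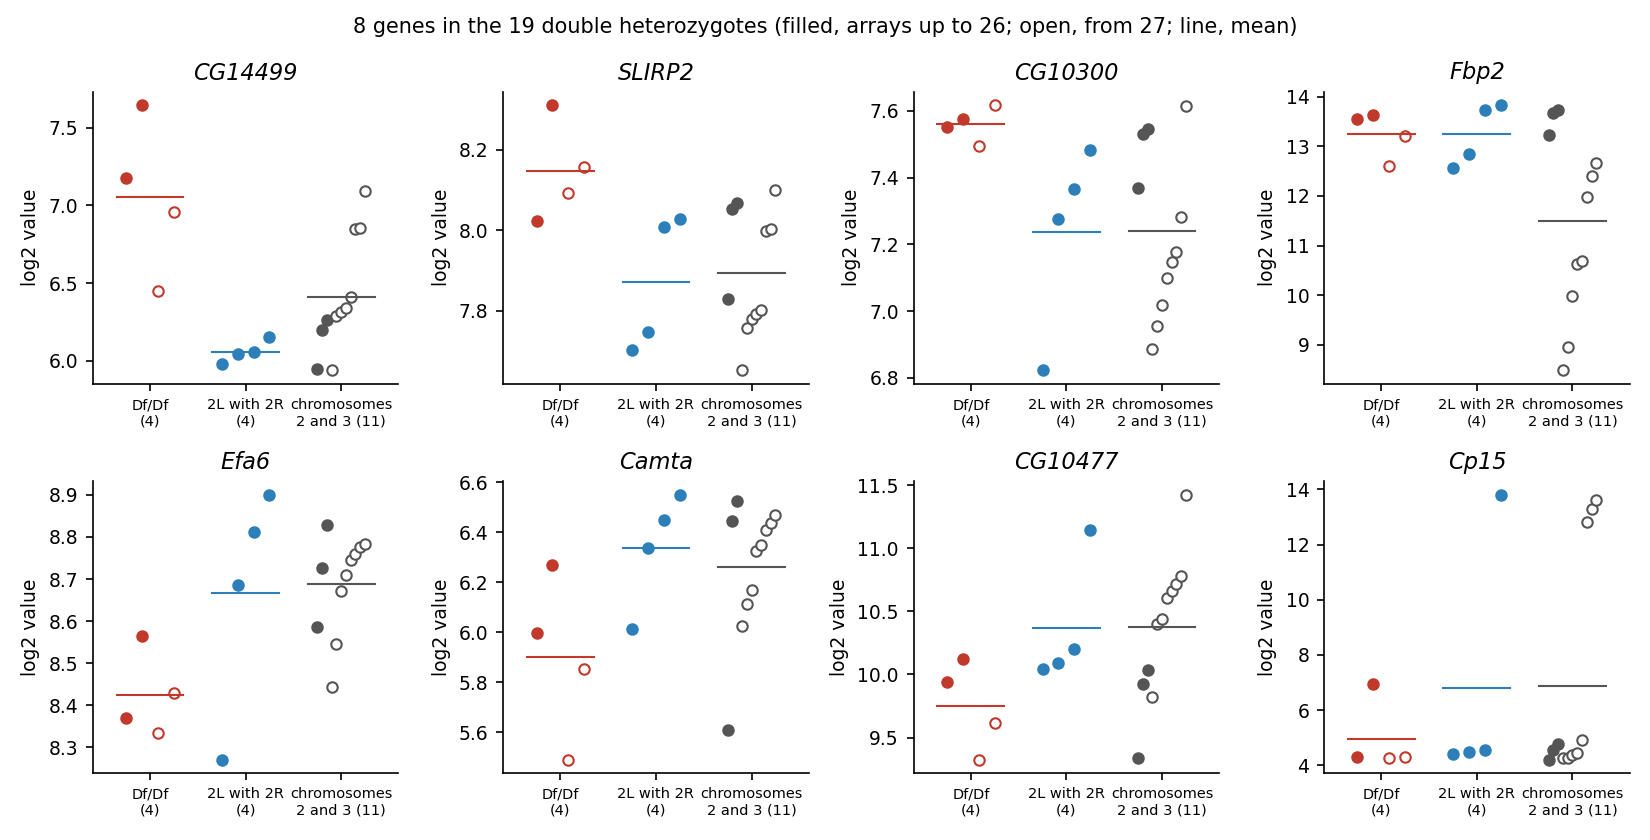
Log2 values (vertical axes) of 8 genes in each of the 19 double heterozygotes, in 3 columns for Df/Df, deletions of 2L with 2R, and deletions of chromosomes 2 and 3. Points are single arrays spread sideways for legibility, filled for array numbers up to 26 and open from 27, and lines are group means; Df/Df overlaps the other doubles in every panel, and Cp15 reaches 13.81 in some of the others.

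Over all genes, the 4 Df/Df arrays were compared for the side of the other 15 on which they lay. For 419 genes (5.83%) all 4 were above the median of the other 15, and for 614 (8.54%) all 4 were at or below it. For 2557 genes (35.5%) 2 were above and 2 were not. Genes above the range of all 15 others numbered 1146 when 1 Df/Df array was enough, 76 when at least 2 had to be, 7 when at least 3 had to be and 0 for all 4. Genes below the range numbered 1254, 86, 0 and 0. The 7 genes above the range in 3 arrays were Tep4, a thioester-containing immune protein, DJ-1alpha, Polr2K and Polr2L, which encode small subunits shared between RNA polymerases, Pfdn6, a subunit of the prefoldin chaperone, Svip and CG4741. Polr2L, for example, stood at 10.29, 10.29, 9.80 and 10.29 in ED4559/ED3, ED1770/ED1612, ED5071/ED10953 and ED7665/ED10953, against 9.52 to 10.23 in the others. The array inside the range was ED5071/ED10953 for Polr2K, Polr2L and Pfdn6, ED4559/ED3 for Tep4, DJ-1alpha and CG4741, and ED1770/ED1612 for Svip. The choice of these 7 was made from their values, and their differences of 0.12 to 0.25 did not pass.

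Genes at the extremes of each Df/Df array are listed as a description. Any single array has some genes outside the range of 15 others. The same count is not given for the other doubles, so the shares cannot be read as a trait of Df/Df. ED4559/ED3 had 295 genes (4.10%) outside the range of the other 15 doubles, 127 above and 168 below. The gene furthest below was CG18628, at 6.04 against 7.95 to 10.80, while ED1770/ED1612, ED5071/ED10953 and ED7665/ED10953 had 10.12, 7.63 and 9.46. CG8343 (8.29 against 9.05 to 11.28) and CG3088 (8.30 against 8.82 to 10.69) followed. CG8343 lies 8 genes from the ED1612 interval, which this genotype does not carry. Furthest above were CG4702 (7.63 against at most 7.09) and CG43064 (7.11 against at most 6.62, with 7.16 in ED1770/ED1612), and CG14298 stood at 9.34.

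ED1770/ED1612 had 412 genes (5.73%) outside the range, 242 above and 170 below. Acbp6, an acyl-CoA-binding protein gene, reached 10.36, against 6.07 to 9.50 in the other 15 and 6.76 to 8.15 in the other Df/Df arrays. The long noncoding RNA lncRNA:CR32368 stood at 8.76 against 4.50 to 7.62 and CG11741 at 8.51 against 5.83 to 7.83. On the low side were Snap25, a SNARE protein of synaptic vesicle release, at 8.96 against 9.43 to 11.23, and Pka-R1, a regulatory subunit of protein kinase A, at 7.21 against 7.66 to 8.98. The germline gene piwi stood at 6.83 against 7.16 to 8.51.

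ED5071/ED10953 had 863 genes outside the range, and 655 of these were below it. Its highest gene by this measure was CG14572, at 9.45 against 5.39 to 8.45, followed by the metallothionein MtnB, a metal-binding protein, at 9.08 against 6.16 to 8.19 and CG34205 at 9.93 against 7.30 to 9.06. Its lowest were the odorant-binding protein gene Obp69a (6.11 against 6.82 to 8.34), CG13947 (6.79 against 7.40 to 12.35) and the kinase gene Mos (5.88 against 6.42 to 8.25). ED7665/ED10953, which shares ED10953 with it, had 999 genes (13.9%) outside, and here 652 were above. Furthest above were r-l, an enzyme of pyrimidine synthesis, at 10.20 against 8.34 to 9.70, the digestive protease gene Jon66Ci at 8.79 against 5.50 to 8.32 and CG12744 at 9.75 against 7.75 to 9.28. Furthest below were CG34040 (7.42 against 8.24 to 11.35), CG14961 (4.80 against 5.46 to 8.33) and the autophagy gene Atg17 (5.75 against 6.30 to 7.71). The 2 genotypes that share ED10953 thus had most of their genes outside the range on opposite sides. Whether these were the same genes was not counted. The germline list, described below, stood at -0.44 in ED5071/ED10953 and at 0.27 in ED7665/ED10953, and its part in this was not tested.

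Genes outside the range were spread over all arms, and the arm that carried the deletions had a share close to that of at least 1 other arm in 3 of the 4 arrays and the lowest share in the other. In ED4559/ED3 3.34% of the genes on 2L were outside the range, against 3.92% to 4.58% on the other arms and chromosomes. In ED1770/ED1612 the share was 6.76% on 2R, against 4.51% on 2L and 6.57% on 3L, and chromosome 4 had the highest share, 13.7%, or 7 of 51 genes. On 3R it was 12.1% in ED5071/ED10953, where X had 171 of 1220 genes outside, and 14.6% in ED7665/ED10953, where 2L had 14.3% and X 14.3%. In the comparison of 4 with 15, the median difference was between -0.02 and -0.01 on X, 2L, 2R, 3L and 3R and -0.07 on chromosome 4, and genes with an unadjusted p under 0.05 made up 0.274% of 3L and 0.696% of 3R at the extremes of the large arms. The median difference of the chromosome 2 pairs from the other 15 was -0.02 for genes on chromosome 2 and -0.02 for genes on chromosome 3. For the 3R pairs it was -0.01 on chromosome 2 and -0.01 on chromosome 3. On chromosome 4, with 51 genes, it was -0.19 for the chromosome 2 pairs and 0.05 for the 3R pairs.

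**Figure D3:**
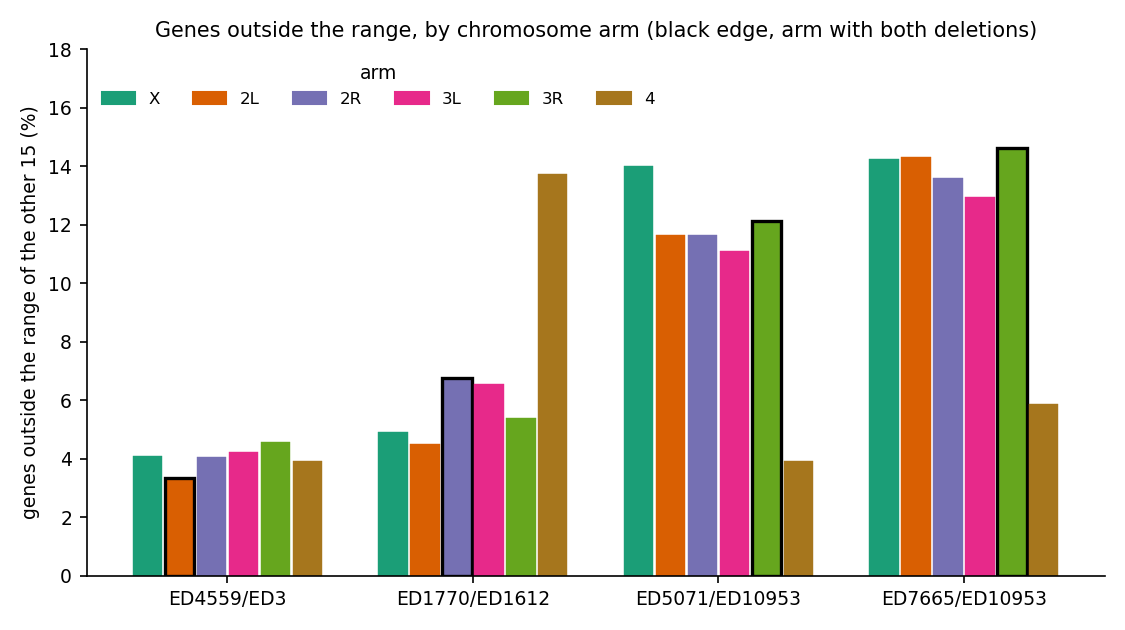
Percentage of tested genes (vertical axis) whose value lay outside the range of the other 15 doubles, for each Df/Df array (horizontal axis) and chromosome arm (colours). Bars with a black edge mark the arm with both deletions; these stand at 3.34%, 6.76%, 12.1% and 14.6%, next to similar shares on other arms of the same array.

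The first tested genes outside each end of each interval were compared with other doubles that carried the same deletion. Of 16 values of 14 neighbouring genes in Df/Df arrays, 12 lay within the range of the other carriers. CG7900, after the end of ED7665, stood at 9.52 in ED7665/ED10953 and at 9.32 to 9.54 in 4 other carriers, while 14 doubles without ED7665 ran from 7.54 to 8.56. The tetraspanin gene lbm, after ED1612, stood at 7.59 in ED1770/ED1612 and at 7.54 to 7.78 in 5 other carriers, against 6.42 to 7.38 in 13 doubles without it. For these genes the level followed the deletion in both layouts. The 4 values outside the range of other carriers were CG15414 next to ED4559 (7.99 against 6.95 to 7.90), Ttc7 next to ED1612 (8.09 against 8.13 to 8.39), CG12581 next to ED5071 (9.13 against 8.49 to 8.72) and CG31102 next to ED10953 (8.12 against 8.49 to 8.62). For each of them the doubles without the deletion covered the Df/Df value, and a single array stands behind each. The other neighbours, within range, were CG3558, elB, lace, CG8635, VhaAC45, Jhbp3, Tailor and CG31103.

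None of the 26 gene lists held a gene that passed in Df/Df against the other 15, beside 0 of 7193 over all genes, where the median difference was -0.02 and 43.7% of differences were positive. For lists tied to homolog pairing and chromatin the differences were small and mostly negative. Of 13 genes for insulator proteins 12 were lower, with a median of -0.09. Cp190, a cofactor of several insulator proteins, stood at 9.64, 9.54, 9.34 and 9.65 in ED4559/ED3, ED1770/ED1612, ED5071/ED10953 and ED7665/ED10953, against 9.41 to 10.30 in the others, and its difference was -0.21 (95% interval -0.50 to 0.07). The zinc finger protein gene pita differed by -0.24 (-0.56 to 0.08). All 11 condensin and pairing genes were lower, with a median of -0.12, led by the condensin subunits Cap-D2 (-0.29) and glu (-0.23). All 12 Polycomb genes, which encode gene-silencing proteins, were lower, with a median of -0.15, among them Asx (-0.28) and Pc (-0.25). The median was -0.07 for cohesin, with wapl at -0.42 and Mau2 at -0.15, -0.13 for heterochromatin factors, with Pof at -0.25 and Su(var)2-HP2 at -0.22, and -0.13 for dosage compensation, with msl-3 at -0.24 and Clamp at -0.18.

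The germline list moved with these lists. It had 23 of 25 genes lower and a median of -0.19, and its values were -0.16, -0.31, -0.44 and 0.27 in ED4559/ED3, ED1770/ED1612, ED5071/ED10953 and ED7665/ED10953, measured from the mean of the other 15, which ran from -0.45 to 0.56. The condensin list stood at -0.12, -0.14, -0.35 and 0.00 in the same arrays and the insulator list at -0.11, -0.10, -0.23 and -0.005. When the germline mean of each array entered the fit, the medians were -0.01 for condensin, -0.025 for insulators and -0.05 for Polycomb. Its part in the results was not tested further. In whole females a smaller share of cells of a type and less RNA per cell cannot be told apart.

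**Figure D4:**
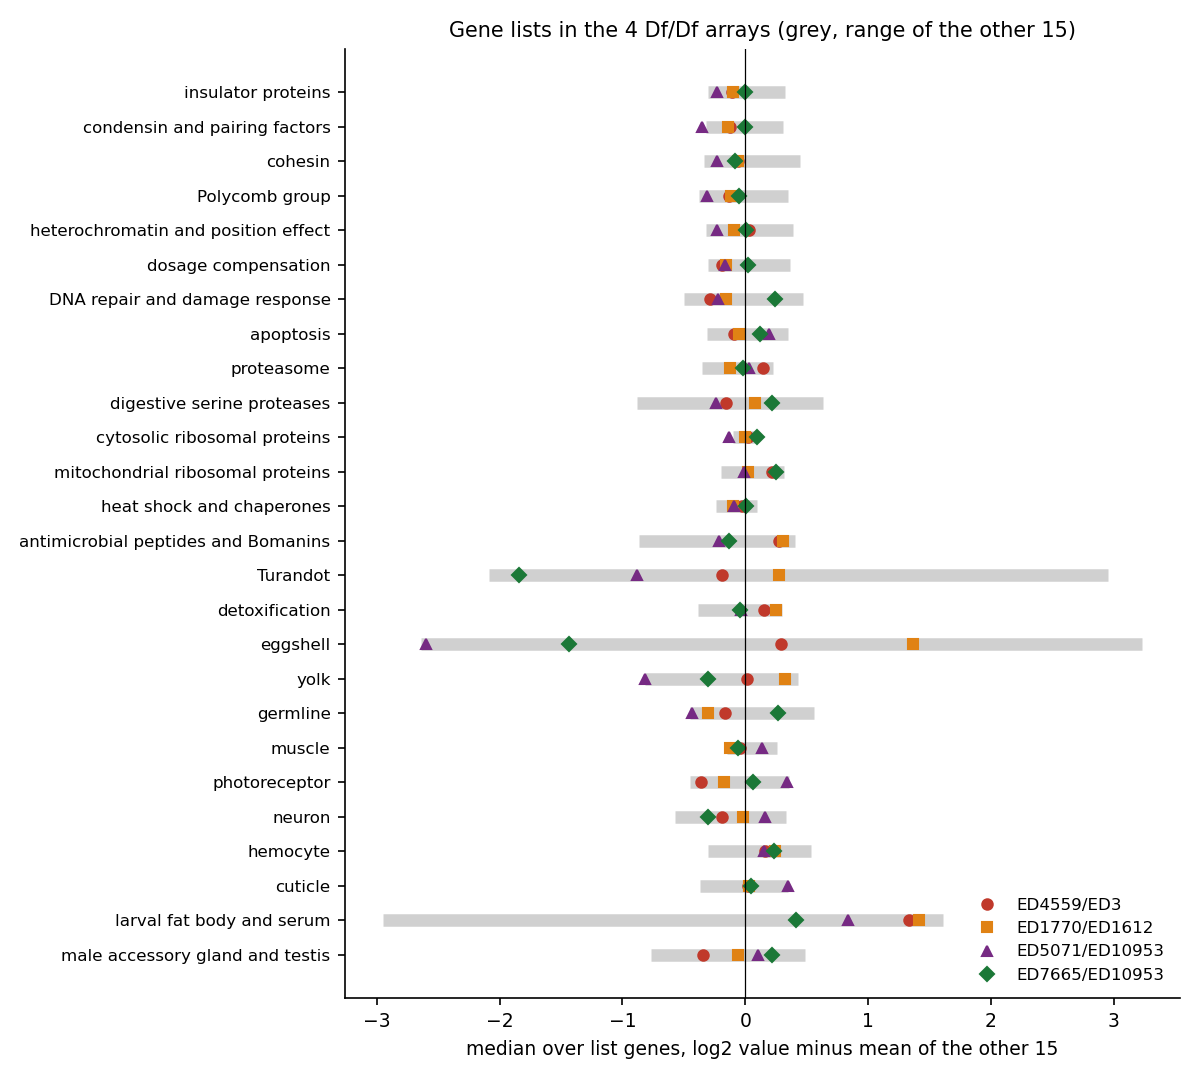
Median over the tested genes of each of 26 lists, as log2 value minus the mean of the other 15 doubles (horizontal axis), for the 4 Df/Df arrays (symbols), with the range of the other 15 doubles as a grey bar. Of 104 Df/Df values 4 lie outside the grey bars, and the eggshell list spans from -2.60 to 1.36 over the Df/Df arrays.

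Eggshell genes gave the largest differences and also the widest spread. Of the 10 genes with a difference over 1, the chorion genes Cp15 (-1.90), Cp18 (-1.29), Cp38 (-1.12) and Cp36 (-1.10) were 4. Their Df/Df means were 4.95, 5.89, 5.17 and 5.93, and their medians in the other 15 were 4.56, 5.89, 5.17 and 5.75. All of these are under the filter of 6. The 4 genes thus passed the filter through a minority of arrays with high values, and their differences rest on such arrays among the other 15. Cp15 stood at 4.31, 6.94, 4.25 and 4.31 in the 4 Df/Df arrays, against 4.21 to 13.81 with a median of 4.56 in the other 15. Only 4 of the other 15 lay above the highest Df/Df value, and the median of the 15 was close to the Df/Df values of the other 3 arrays. The 95% interval for Cp15 ran from -5.94 to 2.14. The list median over eggshell genes was 0.29 in ED4559/ED3, 1.36 in ED1770/ED1612, -2.60 in ED5071/ED10953 and -1.44 in ED7665/ED10953, against -2.64 to 3.23 in the others. Yolk genes followed the same order, at 0.01, 0.33, -0.82 and -0.30. Among germline genes bcd (-0.72) and exu (-0.59), which act in axis formation of the egg, had the largest differences.

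The largest positive difference was that of Fbp2, a larval fat body protein gene. It stood at 13.55, 13.62, 13.22 and 12.60 in ED4559/ED3, ED1770/ED1612, ED5071/ED10953 and ED7665/ED10953, against 8.49 to 13.83 with a median of 12.56 in the other 15. Its difference was 1.29 (95% interval -0.47 to 3.04), and Fbp1 differed by 0.93. All 3 tested genes of the larval fat body list were higher, with a list median of 0.93. The odorant-binding protein gene Obp99b differed by 1.13, CG13962 by 1.03, the cuticle gene Cpr49Ac by 1.03 and the tetraspanin gene Tsp42Ep, which lies 3 genes from the ED1612 interval, by 1.02. The intervals of all these include 0. Array number moved with the larval genes: the list lay between 0.64 and 1.61 in the 7 other doubles numbered up to 26, beside 1.33 and 1.42 in ED4559/ED3 and ED1770/ED1612, and between -2.95 and 0.49 in the 8 numbered from 27, beside 0.84 and 0.41 in ED5071/ED10953 and ED7665/ED10953. The part of array number in these differences was not tested.

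Among the remaining lists, those of the mitochondrial ribosome, hemocytes and cuticle lay mostly on the high side, beside 43.7% of all genes. Of 68 genes for the mitochondrial ribosome 67 were higher, with a median of 0.13, and the largest were mRpS33 (0.22) and mRpL42 (0.21). The Df/Df arrays had 0.22, 0.02, -0.01 and 0.25 for this list, within the range of -0.20 to 0.32 in the others. All 11 hemocyte genes were higher, with a median of 0.17 and the scavenger receptors eater (0.41) and NimC1 (0.38) in front, and the 4 arrays stood at 0.16, 0.24, 0.16 and 0.24. The other 15 had hemocyte values from -0.30 to 0.53. Cuticle genes had 30 of 33 higher and a median of 0.10, and Cpr49Aa differed by 0.40. The cuticle list stood at 0.02, 0.03, 0.35 and 0.04 in ED4559/ED3, ED1770/ED1612, ED5071/ED10953 and ED7665/ED10953, so ED5071/ED10953 was far above the rest. The other 15 had cuticle values from -0.37 to 0.35. The proteasome median was 0.01, with Rpn12 at 0.08 and Rpn3 at -0.06, and the cytosolic ribosome median was -0.00, with RpS5b at -0.15 and RpLP0-like at 0.11. Digestive serine proteases had 12 of 24 higher and a median of -0.00, with yip7 at -0.42 and Jon65Ai at -0.29.

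Stress and defence genes differed from array to array. Antimicrobial peptides stood at 0.27 and 0.31 in ED4559/ED3 and ED1770/ED1612 and at -0.21 and -0.14 in ED5071/ED10953 and ED7665/ED10953, with CecB at -0.43 and DptB at 0.33 in the comparison of 4 with 15. TotC, the single tested Turandot gene, differed by -0.66 (95% interval -2.14 to 0.82). Chaperones had a median of -0.03, with the small heat shock genes Hsp26 at -0.43 and Hsp27 at -0.24. Detoxification genes had a median of 0.06, and the glutathione transferases GstD2 and GstD10 differed by 0.52 and 0.43. GstD2 stood at 9.03 and 9.05 in ED4559/ED3 and ED1770/ED1612 and at 6.92 and 6.86 in ED5071/ED10953 and ED7665/ED10953, against 6.43 to 9.28 in the other 15. DNA repair genes had a median of -0.10, with lok at -0.43 and mus81 at -0.37, and apoptosis genes -0.01, with Buffy at -0.09 and Dcp-1 at -0.08. Muscle (-0.02, with sls at -0.15 and up at -0.12), photoreceptor (-0.07, with ninaD at 0.49 and rdgA at -0.22) and neuron genes (-0.12, with futsch at -0.25 and Snap25 at -0.23) had no gene that passed. The yolk list had a median of -0.19, with Yp2 at -0.25 and the yolk receptor yl at -0.24, and the 1 tested gene of the male list, Acp95EF, differed by -0.02.

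Since 4 of the 15 had both deletions on chromosome 2, Df/Df was also compared with the 11 doubles whose deletions were on different chromosomes. Again 0 of 7193 genes (0%) passed in limma, 117 had an unadjusted p under 0.05 and the lowest adjusted p was 0.968. CG14499 led with 0.65 (95% interval 0.22 to 1.07), followed by MtnB (0.95), SLIRP2 (0.25) and CG30016 (0.36). On the low side were sstn (-0.30), the filamin gene cher (-0.36), the RNA-binding protein gene Unr (-0.31) and CG30389 (-0.25). The Df/Df group mean for MtnB was 8.02, against 7.07 in the 11, and for cher 10.03 against 10.38. With terms for the 7 deletions over all 44 arrays, which take out what each deletion does alone, Df/Df against the other 15 also had 0 calls (0%) and 56 genes with an unadjusted p under 0.05, led by CG44251 (0.28), CG8620 (0.40), CG10051 (0.36) and GstD2 (0.69) on the high side and by Efa6 (-0.27), wge (-0.25), CG10543 (-0.28) and FoxK (-0.22) on the low side.

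The 4 doubles of 2L with 2R gave 9 calls against the 11 (0.125%), 4 higher (0.0556%) and 5 lower (0.0695%). Got2, an aminotransferase of mitochondria, Gart, an enzyme of purine synthesis, Shmt, which feeds one-carbon metabolism, and CG11899 were higher in the 2L with 2R doubles, by 0.52, 0.98, 0.81 and 0.72. CG4563 (-1.34), CG12374 (-1.31), CG2930 (-0.68), CG8773 (-1.05) and pirk (-1.22), a negative regulator of the Imd immune pathway, were lower. Df/Df values for Gart were 9.98 and 10.03 in ED4559/ED3 and ED1770/ED1612 and 9.12 and 9.19 in ED5071/ED10953 and ED7665/ED10953, beside 10.23 to 10.69 in the 2L with 2R doubles and 8.99 to 9.77 in the 11. The chromosome 2 pairs of Df/Df thus lay between these groups and the 3R pairs within the 11. For CG4563 all 4 Df/Df arrays, at 7.84, 8.31, 7.94 and 8.50, lay within the 7.35 to 8.54 of the 11 and above the 6.26 to 7.04 of the 2L with 2R doubles. With array number as a block 0 of these 9 calls were left, while the differences kept their direction and were 0.649 to 0.910 times as large, with adjusted p from 0.346 to 0.987 in limma. Among arrays numbered up to 26, chosen after seeing the data, the 4 doubles did not overlap with the 3 of chromosomes 2 and 3 for any of the 9 genes, and the differences were 0.685 to 0.991 times as large, with adjusted p from 0.0666 to 0.173. For CG4563 those 3 stood at 7.75 to 7.94 and for Gart at 9.29 to 9.75. The 9 genes were called in a fit that held these same arrays, so the lack of overlap follows in part from that choice. The share of all genes without overlap was not counted. Leaving out 1 array at a time gave 0 to 103 calls, 103 without ED4559 with ED10953 and 0 without ED1770 with ED3.

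Grouped by chromosome, the 8 doubles with both deletions on 1 chromosome, Df/Df and 2L with 2R together, had 0 genes that passed against the 11 (0%). In limma 856 of 7193 genes had an unadjusted p under 0.05, more than a share of 0.05, and the lowest adjusted p was 0.338. Leading genes were Shmt (0.55), CG8157 (1.02), Sem1 (0.36) and CG7763 (1.62) on the high side, and cher (-0.43), Jon74E (-0.77), CG12374 (-0.84) and mask (-0.31) on the low side. For Shmt the mean was 11.76 in Df/Df and 12.29 in the 2L with 2R doubles, against 11.47 in the 11. Without ED7665/ED10953, 7 genes passed.

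Array number was examined further, since it split the pairs of chromosome 2 from those of 3R. Among arrays numbered from 27, ED5071/ED10953 and ED7665/ED10953 against 8 others gave 0 calls in limma. Of 7193 genes 609 had an unadjusted p under 0.05 in limma, more than a share of 0.05. The smallest p belonged to CG15155, at 9.45 and 9.43 against 7.79 to 8.66, CG9837, at 8.57 and 8.60 against at most 7.82, and CG15120, at 8.21 and 8.09 against 6.37 to 7.23, on the high side. On the low side CG15096 stood at 10.997 and 10.91 against 11.36 to 11.80 and nebu at 10.26 and 10.26 against 10.59 to 10.91. All 5 had an adjusted p of 0.125, and the fit was added after seeing the data. Next on the low side was Vm34Ca, a vitelline membrane gene of the eggshell, at 6.38 and 9.77 against 11.04 to 13.62. Its difference was -4.56 ± 0.86 (SE), with an adjusted p of 0.190 in limma. The 2 Df/Df arrays did not overlap with the 8 others for these 5 genes or Vm34Ca. All were picked for small p in this fit, so the lack of overlap follows from the choice, and its share over all genes was not counted. None of the 8 carried ED10953, so layout and that deletion cannot be told apart among arrays numbered from 27. The 3 doubles that carry ED10953 over + have numbers up to 26, and they lay on the Df/Df side of the 8 for all 5 genes. CG15155 stood at 9.41, 9.39 and 9.41 in ED4559, ED1612 and ED3 with ED10953, and CG9837 at 9.14, 9.11 and 8.61. CG15120 stood at 8.75, 8.41 and 7.92 there, CG15096 at 10.49, 11.29 and 11.18, and nebu at 9.69, 10.40 and 10.36. Vm34Ca stood at 6.72, 6.06 and 6.26 in these 3 doubles. For CG15096 and nebu 2 of the 3 lay between Df/Df and the 8. Doubles numbered up to 26 without ED10953 were mixed. In ED4559/ED3 and ED1770/ED1612 CG9837 stood at 8.37 and 8.23, CG15120 at 7.56 and 7.63, and CG15155 at 8.54 and 7.93. CG15096 stood there at 11.62 and 11.77, nebu at 10.77 and 10.76, and Vm34Ca at 12.54 and 13.18. The 2L with 2R doubles ran from 7.07 to 8.96 for CG9837, 6.71 to 7.76 for CG15120 and 6.34 to 13.06 for Vm34Ca.

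Each double was also set against its single deletions. The departure of an array was the root mean square, over the 7193 genes, of its log2 value minus what the singles predict. From the sum of the differences of both single deletions from wild type, Df/Df departed by 0.467 in ED4559/ED3, 0.390 in ED1770/ED1612, 0.512 in ED5071/ED10953 and 0.298 in ED7665/ED10953. The mean was 0.417 ± 0.094 (SD, n = 4) in Df/Df and 0.429 ± 0.081 (SD, n = 15) in the other doubles. The difference of -0.0124 was smaller than the spread between arrays (exact two-sided permutation test over 3876 arrangements, p = 0.817). From the mean of both single deletions, which leaves wild type out, Df/Df departed by 0.271, 0.257, 0.387 and 0.263 in the same order. The mean was 0.295 ± 0.062 (SD, n = 4) in Df/Df against 0.316 ± 0.068 (SD, n = 15) in the others, a difference of -0.0212 (exact two-sided permutation p = 0.586). Permuted only within arrays numbered up to 26 and from 27, over 1620 arrangements, the exact p-values were 0.793 and 0.588. The 2 tests form a family, and with neither p near the threshold no adjustment changes a call. Df/Df flies were on this measure neither detectably further from nor closer to the effects of their single deletions than other doubles.

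**Figure D5:**
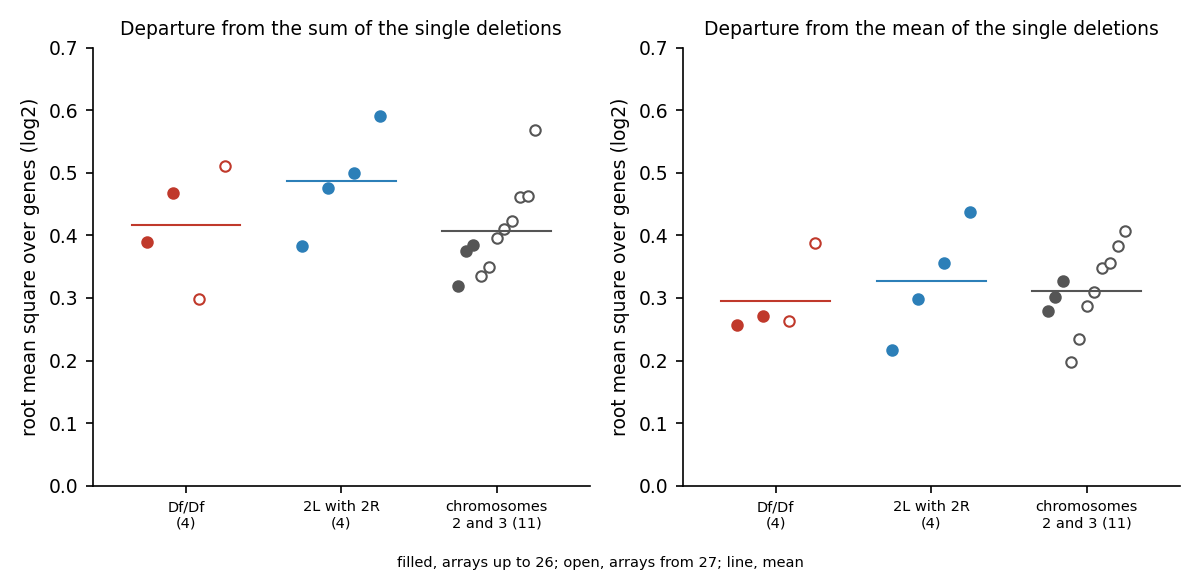
Root mean square departure of each double array from the sum (left panel) and from the mean (right panel) of its single deletions, in log2 units over 7193 genes, for Df/Df, 2L with 2R, and chromosomes 2 and 3. Points are arrays, filled for numbers up to 26 and open from 27, lines are group means, and Df/Df covers 0.298 to 0.512 on the left and 0.257 to 0.387 on the right.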

How the data were processed

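The authors deposited 1 log2 value for each probe set and array (44 Affymetrix arrays), computed with RMA per the submitters' processing notes, with no version or annotation named. The log2 scale is read from their range, 2.58 to 14.66. Genotypes came from the labels. Of 18952 probe sets, 13647 had 1 gene symbol, 402 several and 4903 none; 13537 matched a Release 6 gene on an arm, 11889 genes in all. Release 6 gave gene order only. Of several probe sets (697 of the tested genes) the one with the highest mean was used. Intervals were mapped as runs of lower genes in carriers. Layouts were compared with limma 3.58.1 (R 4.3.3; lmFit, eBayes with a trend, Benjamini-Hochberg, threshold 0.05), departures by exact permutation (Python 3.11.15, scipy 1.17.1, numpy 2.4.6, pandas 2.3.3; figures with matplotlib 3.10.9).

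The genotypes, gene lists, comparisons and rules for naming genes were chosen with earlier results of these data known. Named are the 10 genes of smallest p in each direction for Df/Df against the other 15, since none passed, 4 per direction for other comparisons, 3 above and 3 below the range in each Df/Df array, the 2 largest differences of each list, and the neighbours of each interval. Synonyms and family prefixes were matched through the RefSeq table. The 26 lists were insulator proteins, condensin and pairing factors, cohesin, Polycomb group, heterochromatin and position effect, dosage compensation, DNA repair, apoptosis, proteasome, digestive serine proteases, cytosolic and mitochondrial ribosomal proteins, heat shock, antimicrobial peptides, Turandot, detoxification, eggshell, yolk, germline, muscle, photoreceptor, neuron, hemocyte, cuticle, larval fat body and male tissue. Alternatives covered filters, probe set choice, centring, array number, germline level, deletion terms, eBayes options and leaving out arrays. The fits were tested on simulated data.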

Additional observations from a re-analysis of the deposited data

Results flagged for a closer look

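In 4 of 49 sets of Df/Df values, an array stood apart from the other 3 by Dixon's test, which flags about 1 in 20 groups by chance. In 3 of them it was ED5071/ED10953: the cohesin list at -0.23 against -0.08 to -0.06 (gap over range 0.862), the cuticle list at 0.35 against 0.02 to 0.04 (0.932), and the departure from the mean of the single deletions at 0.387 against 0.257 to 0.271 (0.894). In the dosage compensation list ED7665/ED10953 stood at 0.02 against -0.19 to -0.16 in the other 3 (0.833).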

How the results depend on the processing

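No paired analysis was possible because each double genotype was a single array and its replicate number only names it. Df/Df against the other 15 doubles had 0 calls under each alternative but arrays numbered up to 26 only, which had 1 (CG14499), and leaving out 1 array gave 0 to 0 calls. The 2L with 2R doubles against the 11 gave 9 calls, but 0 with array number as a block, 3 without ED4559 with ED1770 and ED4559 with ED1612, 0 with 7 deletion terms over the 19 doubles, and 2, neither among the 9, in arrays numbered up to 26 only. In the last fit the differences of the 9 genes were 0.685 to 0.991 times as large, and with the block 0.649 to 0.910 times. The 9 genes did not overlap between the groups in that last fit, but they were picked with the same arrays, so this is a description. Leaving out 1 array gave 0 to 103: 103 without ED4559 with ED10953, 30 without ED7665/ED10953, 5 without ED4559 with ED1770, 2 without ED1612 with ED3 and 0 without ED1770 with ED3. The 8 doubles against the 11 gave 0 to 7, with 7 without ED7665/ED10953. The difference in departure from the sum of single deletions changed sign at a mean of at least 7 (0.00348) and with the median absolute departure (0.00446), and ran from -0.0441 to 0.0272 when 1 Df/Df array was left out, above 0 without ED7665/ED10953. For the departure from the mean of single deletions that range was -0.0521 to -0.00872. The cause of these changes was not tested. The male list had no tested gene at a mean of at least 7 and gives no value there. With 4 Df/Df arrays and a median interval half-width of 0.27, small differences were not detectable.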
